A study of Mus musculus with 4 samples.

Results

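Hopx, Lrig1, Tert, Krt15, Sox9 and Msi1 are 6 genes used beside Bmi1 to mark reserve or injury-resistant stem cells of the gut. They were taken by symbol from the 31054 features of 4 single-cell libraries, and each symbol had 1 row in every library. All mice carried the Bmi1-GFP allele, a reporter that places GFP under the Bmi1 locus, and cells were sorted by flow cytometry before droplet capture. The groups were embryos of embryonic day 12.5 (E12.5), embryos of day 17.5 (E17.5), adults and irradiated adults, with 1 library each. E12.5 tissue was dissected intestine, and from day 14.5 on the small intestine was taken. The labels do not give the irradiation dose, the time after it, how many animals were used, their sex and exact age, or how the sorter was gated. A difference between groups is therefore a difference between 2 libraries, with no replicate check and no test.

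The adult crypt is renewed by cycling crypt base columnar stem cells marked by Lgr5 and Olfm4. Reserve stem cells are described as rarer or slower cells, often placed just above the crypt base, that can restore the crypt when the cycling cells are lost. Hopx encodes a homeodomain-only protein that binds no DNA, and Lrig1 a membrane protein that restrains ErbB receptors. Tert is the catalytic subunit of telomerase. Krt15 is a type I keratin known from stem cells of stratified epithelium. Sox9 is a transcription factor of crypt progenitors, Paneth cells and tuft cells, and Msi1 an RNA-binding protein of progenitors.

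In the GRCm38 build, Hopx lies on chr5:77086988-77115121 (minus strand), Lrig1 on chr6:94604529-94700158 (minus) and Tert on chr13:73626911-73649843 (plus). Krt15 lies on chr11:100131758-100135928 (minus), Sox9 on chr11:112782224-112787760 (plus) and Msi1 on chr5:115429599-115455698 (plus). The files give 1 count per gene from 3' tags, with no count per exon or isoform. Hopx overlaps the antisense gene Hopxos, Lrig1 overlaps Slc25a26 and Msi1 overlaps 4930430O22Rik on the other strand, and whether counting used strand is not given in the sources used here.

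Cells with at least 500 genes and at most 20% mitochondrial UMIs (unique molecular identifiers, 1 per captured RNA molecule) were kept and putative doublets removed. The E12.5 library then held 4050 cells, the E17.5 library 4409, the adult library 3597 and the irradiated library 3031, with a median of 18081.5, 11003, 3607 and 8554 UMIs. Between 0 and 6 kept barcodes were shared by any pair of libraries. Clusters were named "-like" from marker genes, with the 6 genes, Bmi1 and eGFP left out of clustering. Although the labels say intestinal epithelium, the E17.5 library held 534 pancreatic acinar-like, 137 islet-like, 144 smooth muscle-like, 93 mesenchymal-like and 22 mesothelial-like cells, which were set apart. The adult epithelium was 2221 enteroendocrine-like and 973 tuft-like cells of 3597, and only 106 cells were crypt base columnar-like, in a cluster that Mki67 and Top2a led. At E17.5, 771 cells were crypt base columnar-like, and 1 large cluster of them, with 45 cells with and 475 without a Krt15 UMI, was mostly dividing. Of these cells cut to 2000 UMIs, 44 of 45 and 449 of 471 had at least 3 UMIs over 15 G2/M genes. No tuft-like cluster was found in either embryo. The irradiated library held 631 cells in unnamed clusters, and no cluster of it was called crypt base columnar-like. The mix of classes therefore differs between libraries wherever whole libraries are compared.

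Levels are given as CPM (UMIs of a gene per 1000000 UMIs, summed over the epithelial and unnamed clusters of a library), with exact Poisson 95% intervals that cover counting error only. CPM is not corrected for gene length, so levels are compared for 1 gene at a time. Hopx had 68.8 CPM at E12.5 (67.0 to 70.6), 209 at E17.5 (206 to 213), 443 in adult cells (436 to 451) and 384 after irradiation (377 to 390). It was lowest at E12.5 and highest in the adult, and no intervals overlapped. Lrig1 had 4.87 CPM at E12.5 (4.41 to 5.38), 8.38 at E17.5 (7.68 to 9.14), 14.9 in adult cells (13.5 to 16.3) and 11.8 after irradiation (10.7 to 12.9). Its order was the same as that of Hopx, again with separate intervals.

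Tert had 4.92 CPM at E12.5 (4.45 to 5.43), 6.10 at E17.5 (5.50 to 6.74), 2.92 in adult cells (2.34 to 3.60) and 2.84 after irradiation (2.33 to 3.42). Both embryonic libraries were above both adult ones, which did not differ beyond their intervals. The mean of each cell's CPM turned the small step between the embryos round, to a log2 ratio of -0.23 from 0.26. Krt15 had 3.1 CPM at E12.5 (2.73 to 3.51), 2.19 at E17.5 (1.84 to 2.59), 1.48 in adult cells (1.07 to 1.98) and 24.6 after irradiation (23.0 to 26.2). The irradiated library stood apart, and the intervals of E17.5 and the adult overlapped.

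Sox9 had 172 CPM at E12.5 (169 to 175), 66.4 at E17.5 (64.4 to 68.5), 113 in adult cells (110 to 117) and 88.7 after irradiation (85.8 to 91.7). The adult value was 69.9 CPM under a stricter cell filter of 1000 genes and 10% mitochondrial UMIs, which kept 203 tuft-like cells in place of 973. Msi1 had 22.1 CPM at E12.5 (21.1 to 23.1), 9.69 at E17.5 (8.93 to 10.5), 20.3 in adult cells (18.7 to 21.9) and 14.7 after irradiation (13.5 to 15.9). E17.5 was lowest for both Sox9 and Msi1, and the intervals of Msi1 at E12.5 and in the adult overlapped. Bmi1 itself had 15.9, 10.4, 11.3 and 14.2 CPM in the same order, and the eGFP feature 22.8, 1.16, 1.64 and 12.4 CPM.

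**Figure D1:**
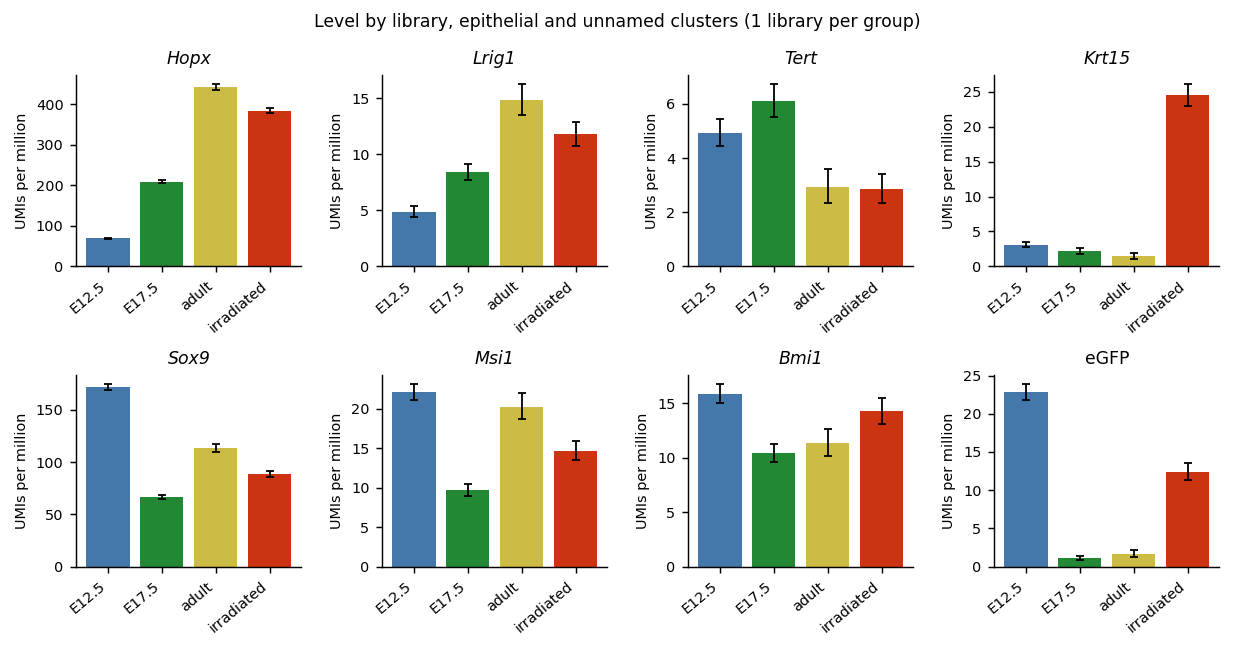
Level of each gene in CPM (vertical axes) in the epithelial cells of the 4 libraries (horizontal axes), with exact Poisson 95% intervals as error bars, 1 library per group. Hopx was highest in the adult at 443 CPM, Sox9 highest at E12.5 at 172 CPM, and Krt15 stood at 24.6 CPM after irradiation against 1.48 to 3.1 in the other libraries.

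To compare how many cells held each RNA, cells were cut to a random 2000 of their UMIs each, leaving out shallower cells. A Hopx UMI was then found in 13.0% of epithelial cells at E12.5, 31.7% at E17.5, 57.5% in adult cells and 57.9% after irradiation. Unthinned, the shares were 55.9%, 70.5%, 71.0% and 81.4%. For Sox9 the thinned shares were 27.6%, 10.6%, 21.6% and 14.3%, and for Msi1 4.24%, 2.37%, 5.86% and 4.16%. Lrig1, Tert and Krt15 were found in at most 2.58% of thinned cells in each library, so that a cell without a UMI says little about these 3 genes.

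Comparisons between libraries used log2((CPM + 1)/(CPM + 1)) and called a gene past 2-fold. From E12.5 to E17.5, 1 of the 6 genes was called higher (Hopx, log2 ratio 1.59) and 2 lower (Sox9, -1.36, and Msi1, -1.11). Of all 16692 genes tested, 13.2% were called higher and 14.5% lower. Lrig1 stood at 0.68, Tert at 0.26 and Krt15 at -0.36. The call for Msi1 was lost with edgeR's TMM scaling, at -0.99, and with a pseudocount of 10 CPM, at -0.70.

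From E17.5 to the adult, Hopx alone was called higher, at 1.08, beside 12.6% of 15986 genes, and none of the 6 was called lower, beside 12.6%. Msi1 at 0.99 was just short of the fold and was called higher under several other settings. Sox9 stood at 0.76, Lrig1 at 0.76, Krt15 at -0.36 and Tert at -0.86. Hopx missed the fold, at 0.95, when mitochondrial and ribosomal protein genes were left out of the totals, and Tert then passed it downwards, at -1.01. Class make-up differs between these libraries, and the values within classes are given with each class.

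From adult to irradiated adult, Krt15 alone was called higher, at 3.37, beside 2.59% of 15157 genes, and none was called lower, beside 4.78%. Tert stood at -0.03, Hopx at -0.21, Lrig1 at -0.31, Sox9 at -0.35 and Msi1 at -0.44. Class make-up differed here too: tuft-like cells gave 67.9% of adult Sox9 UMIs, and were 27.1% of adult and 9.60% of irradiated cells. Sox9 did not fall in every class, and was called higher in enteroendocrine-like cells, as given with the classes. Libraries were clustered separately, so the cluster with most Krt15 UMIs was a different one in each. In the adult it was the crypt base columnar-like cluster, without which 26 of 44 Krt15 UMIs remained. Leaving out each library's own such cluster gave a Krt15 ratio of 1.22, still past 2-fold. Leaving it out of the irradiated library only gave 0.95, not called. Both alternatives were chosen after the data had been seen.

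Hopx was highest in enteroendocrine-like and tuft-like cells, and lower in crypt base columnar-like and mature absorptive cells. At E17.5 it had 406 CPM in enteroendocrine-like cells (394 to 418), 247 in crypt base columnar-like cells (241 to 254), 201 in goblet-like cells and 103 in enterocyte-like cells. In the adult it had 710 CPM in tuft-like cells (686 to 735), 618 in enteroendocrine-like cells (604 to 631), 254 in crypt base columnar-like cells (240 to 268) and 82.0 in Paneth-like cells. After irradiation enteroendocrine-like cells (551 CPM) and tuft-like cells (550 CPM) did not differ beyond their intervals, and Paneth-like cells were lowest at 49.0 CPM.

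The thinned share of cells with a Hopx UMI was 71.0% in adult tuft-like and 55.7% in adult enteroendocrine-like cells. Pancreatic acinar-like cells are given as a class low in Hopx, as no class that should lack it had been set beforehand. They had 3.45 CPM from 24 UMIs and a thinned share of 0.973%, at a median depth of 12354.5 UMIs, against 44.9% in enteroendocrine-like cells of the same library at 7356 UMIs. The E17.5 cells named only as general epithelium, from clusters whose leading genes included Tff2 or Spp1 or Neurog3, had 7.81 CPM from 22 UMIs. Smooth muscle-like cells had 40.3 CPM (28.9 to 54.6).

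Lrig1 was highest among epithelial classes in the adult crypt base columnar-like cells, at 30.7 CPM (26.1 to 35.9, 159 UMIs). These were 2.95% of the adult cells and gave 35.9% of the library's Lrig1 UMIs against 17.4% of all its UMIs. Adult Paneth-like cells had 16.1 CPM, enteroendocrine-like cells 12.5, enterocyte-like cells 9.28 and tuft-like cells 6.08 (4.04 to 8.79). At E17.5 the crypt base columnar-like cells had 10.8 CPM (9.52 to 12.3), within the interval of goblet-like cells at 11.6, and enterocyte-like cells had 4.83 (3.93 to 5.88). The highest level in any class was in E17.5 smooth muscle-like cells, which are not epithelial, at 50.1 CPM (37.3 to 65.8, 51 UMIs).

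Tert followed another order. At E17.5 it was highest in enterocyte-like cells, at 10.0 CPM (8.68 to 11.5, 205 UMIs), which gave 54.1% of Tert UMIs against 33.0% of all UMIs. Crypt base columnar-like cells had 5.22 CPM (4.31 to 6.25), enteroendocrine-like cells 2.80 and goblet-like cells 2.65. In the adult, enteroendocrine-like cells had 4.62 CPM (3.52 to 5.96), enterocyte-like cells 3.29 (1.64 to 5.89) and crypt base columnar-like cells 2.90 (1.62 to 4.78), and these intervals overlapped. Tuft-like cells held no Tert UMI in 973 adult and 291 irradiated cells, where 3 UMIs would have been 0.651 and 1.92 CPM. Paneth-like cells held 2 UMIs in the adult and 1 after irradiation.

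Sox9 was highest in tuft-like cells. It had 499 CPM in adult tuft-like cells (478 to 519) and 458 in irradiated ones (425 to 493), with thinned shares of 60.6% and 58.6%. Adult tuft-like cells gave 67.9% of the library's Sox9 UMIs and 15.5% of all its UMIs. Crypt base columnar-like cells had 108 CPM in the adult and 84.3 at E17.5, and Paneth-like cells 56.7 in the adult and 67.0 after irradiation. Enterocyte-like cells, which mature away from the crypt, had 29.3 CPM at E17.5 and 20.1 in the adult, with thinned shares of 4.71% and 2.70% at median depths of 26384 and 33017 UMIs. Enteroendocrine-like cells stood at that level in the adult, at 18.9 CPM and 3.46%, with a median of 3191 UMIs. At E17.5 the general epithelium had 264 CPM (245 to 283), and pancreatic acinar-like cells had 63.0 CPM, whereas smooth muscle-like cells held 3 UMIs.

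Msi1 was spread over tuft-like, enteroendocrine-like and stem-like cells. In the adult it had 31.3 CPM in tuft-like cells (26.4 to 36.8), 25.1 in enteroendocrine-like cells (22.5 to 28.0), 15.8 in crypt base columnar-like cells (12.6 to 19.6) and 3.29 in enterocyte-like cells. The first 2 intervals overlapped. At E17.5 crypt base columnar-like cells had 15.7 CPM (14.1 to 17.4) and gave 58.5% of Msi1 UMIs against 36.1% of all UMIs. Enterocyte-like cells had 1.61 CPM (1.11 to 2.26), and their thinned share was 0.139% at a median of 26384 UMIs, against 2.84% in crypt base columnar-like cells at 28841. Bmi1 itself was highest in enteroendocrine-like cells at E17.5, at 22.0 CPM, against 9.10 in crypt base columnar-like cells. In the adult it had 17.8 CPM in tuft-like, 15.8 in enteroendocrine-like and 6.37 in crypt base columnar-like cells.

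**Figure D2:**
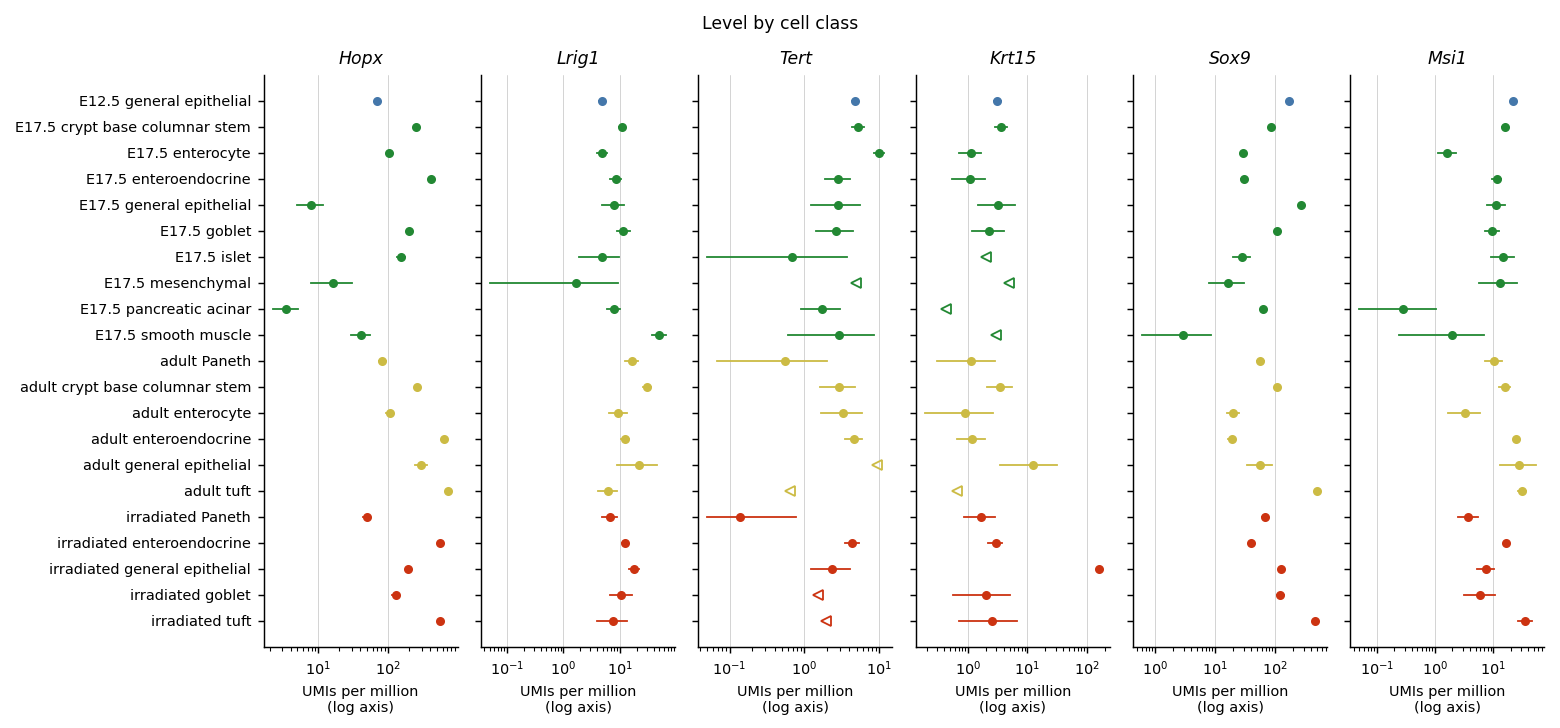
Level of each gene in CPM (log axis) in the named classes of at least 50 cells in the 4 libraries, with exact Poisson 95% intervals. E12.5 has general epithelium only. Where no UMI was found, open triangles stand at the CPM that 3 UMIs would have been, as for Tert in both groups of tuft-like cells. Hopx and Sox9 reached 710 and 499 CPM in adult tuft-like cells, and Lrig1 reached 30.7 CPM in adult crypt base columnar-like cells.

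Part of these ratios was not seen once enteroendocrine-like, tuft-like and unnamed cells were left out. From E12.5 to E17.5, Hopx (1.30), Sox9 (-1.2) and Msi1 (-1.15) kept their calls, beside 10.8% of genes higher and 17.4% lower. From E17.5 to the adult, Hopx stood at -0.05, Lrig1 was called higher, at 1.2 (5.70% of genes), and Tert lower, at -1.25 (13.2%). Adult Hopx had 165 CPM in these cells (158 to 173) and E17.5 Hopx 171 (168 to 175), and these intervals overlapped.

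Among adult and E17.5 enteroendocrine-like cells Hopx stood at 0.60, against 1.08 over whole libraries, and Msi1 alone was called higher, at 1.06, beside 11.3% of genes, with none of the 6 lower, beside 9.34%. Msi1 missed the fold, at 0.88, when cells were taken by marker UMIs and not by cluster. Lrig1 was called higher, at 1.42, in adult over E17.5 crypt base columnar-like cells, where 7.59% of genes were higher and 6.60% lower, and Hopx there stood at 0.04. In the same comparison 7 of 14 crypt base columnar genes were also called higher and none lower, with Olfm4 at 2352 against 195 CPM. Their part in the Lrig1 value was not tested. Tert was called lower in adult over E17.5 enterocyte-like cells, at -1.36, beside 16.3% of genes, and none was called higher, beside 10.6%. At a finer clustering resolution Lrig1 (1.05) and Msi1 (1.29) also passed the fold there.

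After irradiation, Sox9 was called higher in enteroendocrine-like cells, at 39.3 CPM against 18.9 in the adult (log2 ratio 1.02), beside 1.52% of genes, and none was called lower, beside 2.89%. Krt15 stood at 0.84 there, on 56 against 15 UMIs, and at 2.62 when cells were taken by marker UMIs. In tuft-like cells none of the 4 genes with enough UMIs passed the fold (4.53% of genes were higher and 3.09% lower). In Paneth-like cells Lrig1 (-1.17) and Msi1 (-1.26) were called lower of 5 tested, beside 12.7% of genes, and none higher, beside 5.98%. Of the 14 crypt base columnar genes, 12 were also called lower in these Paneth-like cells, with Olfm4 at 1009 CPM in the adult and no UMI after irradiation. Their part in the values of Lrig1 and Msi1 was not tested. Without enteroendocrine-like, tuft-like and unnamed cells, Krt15 alone was called higher after irradiation, at 4.16 (6.13% of genes), and none was called lower (15.6%).

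At E12.5 the epithelium had no mature class, and clusters were described by their leading genes. Hopx had 97.5, 97.7 and 101 CPM in the 3 clusters led by Osr2 or holding it among their top genes, and 88.6 and 87.4 in clusters led by histone and mitosis genes. It had 66.2 and 45.5 CPM in the clusters led by Onecut2 and Sfrp5. Much lower values were found in 3 clusters: 9.55 CPM in that led by Postn, 10.2 in that led by Spp1 and Cpa1, with Pdx1 among its top genes, and 5.45 in that led by Hoxb13. Hopx was itself among the top genes of the Osr2 clusters. Hoxb9 and Hoxb13 are genes of more posterior gut, and Pdx1 and Cpa1 are genes of the duodenal and pancreatic buds.

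The 3 named clusters with least Hopx had most Sox9. It had 382 CPM in the Spp1 and Cpa1 cluster, 224 in the Postn cluster and 215 in the Hoxb13 cluster, against 141 to 190 in the other named clusters. Lrig1 was low in the Postn cluster, at 1.54 CPM from 10 UMIs, and in the Hoxb13 cluster, from 1 UMI, and had 3.71 to 7.44 CPM in the others. Msi1 varied least, from 17.2 to 25.2 CPM. Krt15 had 119 CPM in the Hoxb13 cluster and at most 2.31 CPM in the other named clusters. These are clusters of 1 library, found from the same cells, and no test was made between them.

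**Figure D3:**
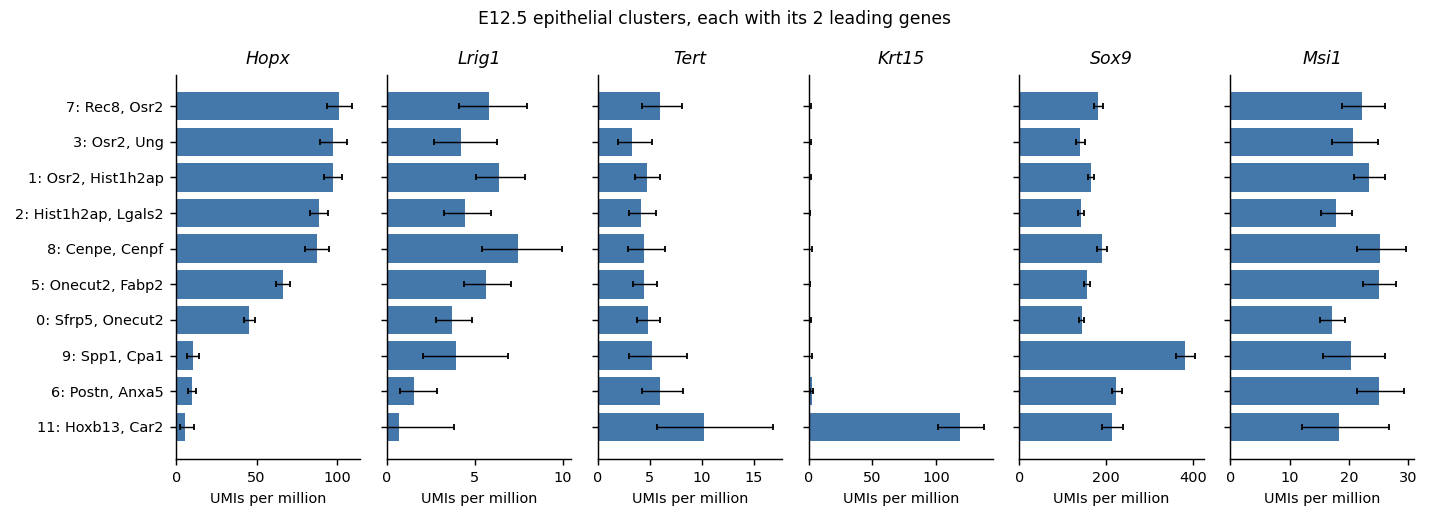
Level of each gene in CPM in the E12.5 clusters, named by 2 of their leading genes, as bars with exact Poisson 95% intervals. Hopx was near 100 CPM in the Osr2 clusters and near 10 or below in the Postn, Spp1 and Hoxb13 clusters, and Krt15 was at 119 CPM in the Hoxb13 cluster.

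Krt15 RNA was carried by few cells. After irradiation the 10 cells with most Krt15 held 573 of 952 UMIs (60.2%), and the highest held 128. For Hopx the top 10 cells held at most 2.85% of UMIs in any library. A single cluster of 96 irradiated cells held 825 of the 952 Krt15 UMIs, at 162 CPM (151 to 173), and 48 of its cells had a Krt15 UMI. Its leading genes included Reg3b, Ccnd1, Gsta1, Ube2c and Areg, and its cells had a median of 49347.5 UMIs. Without it the irradiated library had 3.77 CPM (3.15 to 4.49). At E12.5 the Hoxb13 cluster of 88 cells held 174 of 254 Krt15 UMIs, and without it 0.995 CPM remained (0.789 to 1.24). With each library's own leading cluster left out, E17.5 was above E12.5 for Krt15, at a log2 ratio of 0.44 in place of -0.36. With the Hoxb13 cluster left out at E12.5 only, the ratio was 0.68. None of these 3 values passed 2-fold.

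The Krt15 cells of these libraries differed in what else they expressed. The following genes, beyond the lists, were chosen after their values had been seen. In the E12.5 Hoxb13 cluster, the 46 cells with a Krt15 UMI had 117 Krt14 UMIs and the 42 without had 1. They had 124 against 31.4 CPM of Krt5, 20 against 5 UMIs of Trp63 and 507 against 12.2 CPM of Cxcl14, and 44.7 against 120 CPM of Cdx2. Krt14 and Krt5 are basal keratins, Trp63 a regulator of stratified epithelium and Cdx2 a regulator of intestinal identity. The Krt14 UMIs came from 7 cells and the Cxcl14 UMIs from 8. Hoxb13 had 362 against 248 CPM.

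In the irradiated cluster, the 48 cells with a Krt15 UMI had no Krt14, Trp63, Hoxb13 or Cxcl14 UMI. Their 25 Krt5 UMIs came from 1 cell, as did their 8 Krt17 UMIs. They had 62.8 CPM of Cdx2, against 86.7 in the 48 cells without Krt15, and 7672 against 6994 CPM of Krt8, a simple keratin. Among genes of regenerating or injured epithelium, Ly6a had 710 against 378 CPM, Clu 239 against 310 and Areg 543 against 536, so that these 3 genes did not go one way. Krt20, a keratin of mature villus cells, had 64.4 against 236. Hopx had 181 against 210 CPM, Sox9 114 against 148 and Lrig1 20.8 against 13.4. The cells with Krt15 were deeper, with a median of 57128.5 against 41499.5 UMIs, and 18 of 48 (37.5%) against 5 of 44 (11.4%) counted as cycling. The part of depth in these differences was not tested. In the E17.5 library, Krt15 had 111 CPM in the mesothelial-like cells (20 UMIs in 22 cells), outside the epithelium.

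**Figure D4:**
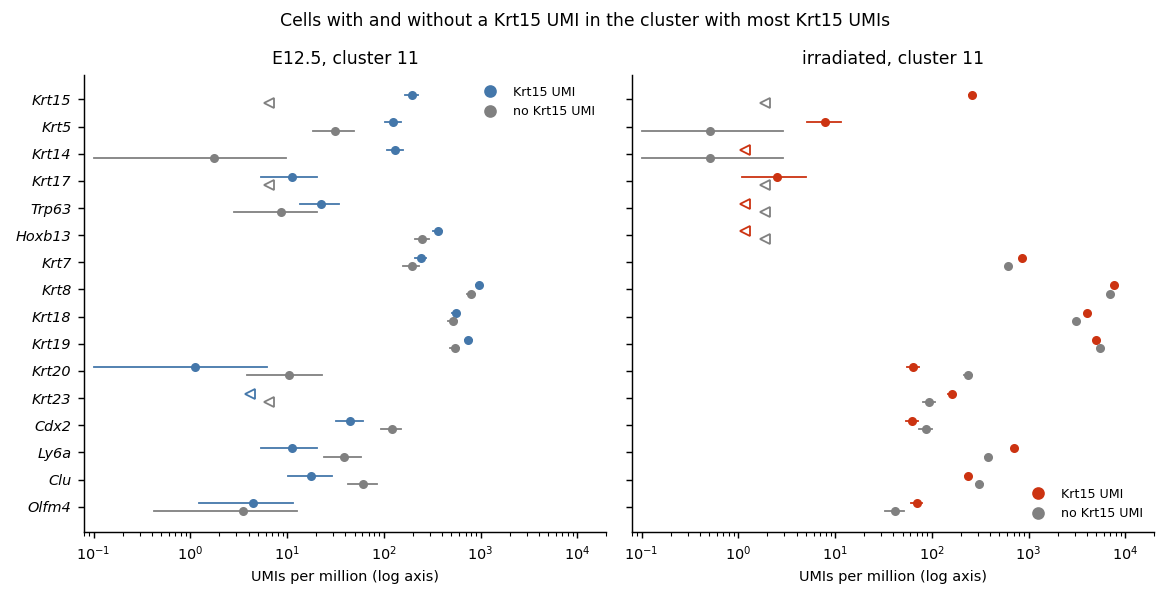
Levels of keratins, Trp63, Cdx2, Hox genes and other genes in CPM (log axis) in cells with and without a Krt15 UMI, in the E12.5 Hoxb13 cluster and in the irradiated cluster with most Krt15. Open triangles stand at the upper 95% limit where no UMI was found. Krt14 was at 131 CPM in the E12.5 cells with Krt15 and had no UMI in the irradiated ones.

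Cells with a Bmi1 UMI were deeper than cells without, at a median of 25008 against 16068 UMIs at E12.5, 21678 against 10853 at E17.5, 9164 against 3425 in the adult and 13485 against 7655.5 after irradiation. Each gene was therefore set beside the number expected from cells without Bmi1 in the same of 10 depth bins. The 95% interval covers the counting of the observed cells only, and a ratio of 1.25 with at least 10 expected cells was called. At E12.5, 1001 cells had Bmi1, and a Hopx UMI was found in 72.6% of them, where 50.4% of all cells without Bmi1 and 67.1% at matched depth had one. The matched ratio was 1.08 (1.00 to 1.16). Msi1 stood at 1.11 (1.01 to 1.21), Sox9 at 1.01, Lrig1 at 0.959 and Tert at 0.821 (0.676 to 0.988). None of the 6 was called, beside 4.50% of genes called higher and 4.41% lower, nor with class matched as well (4.24% and 4.58%). The E12.5 classes were only general epithelium and unnamed cells, so matching on class there could not separate the named clusters.

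At E17.5, Msi1 was found in 20.5% of the 562 cells with Bmi1 against 15.7% expected, a ratio of 1.31 (1.08 to 1.57), and was the only gene of the 6 called higher, beside 6.37% of genes. None was called lower, beside 3.62%. With class matched as well, Msi1 stood at 1.16 (0.962 to 1.40) and was not called (5.02% of genes were higher), while Krt15 was called lower at 0.781 (0.495 to 1.17), beside 3.92% of genes. Within enteroendocrine-like cells alone, 25 cells had both Bmi1 and Msi1 against 14.4 expected, a ratio of 1.73 (1.12 to 2.56). The other 5 genes stood between 0.848 and 1.07 at matched depth.

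In the adult, Lrig1 was called higher in the 298 cells with Bmi1, at 1.29 (0.972 to 1.68), beside 11.3% of genes, and none was called lower, beside 4.24%. The share was 18.5% against 14.3% expected and 7.76% in all cells without Bmi1. With class matched the Lrig1 ratio was 1.16 (0.868 to 1.51) and no longer called. Tert stood at 1.52 (0.853 to 2.51) on 15 cells, with fewer than 10 expected, and at 1.48 (0.827 to 2.44) with class matched, where 10.1 were expected and it was called higher. In that matching 7.65% of genes were higher and 4.98% lower, with none of the 6 lower. Sox9 stood at 1.13 in all cells and at 1.65 (1.11 to 2.37) within enteroendocrine-like cells, on 29 cells against 17.6 expected.

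After irradiation, Krt15 was called higher in the 477 cells with Bmi1, at 1.35 (0.937 to 1.87), beside 8.04% of genes, and at 1.35 (0.929 to 1.90) with class matched, beside 6.57%. None was called lower, beside 4.08% at matched depth and 4.89% with class. Msi1 stood at 1.23 (1.01 to 1.48), Tert at 1.19, Hopx at 1.04, Sox9 at 1.04 and Lrig1 at 0.839 (0.653 to 1.06). Over the 4 libraries Msi1 was above 1 in each, from 1.09 to 1.31, where the median ratio of all genes was itself 1.01 to 1.06. Hopx stayed between 1.01 and 1.08, where the unmatched shares differed widely. Class-matched bins held as few as 1 cell without Bmi1, and the calls of Lrig1 in the adult and Krt15 after irradiation were lost when cells were thinned to 2000 UMIs.

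**Figure D5:**
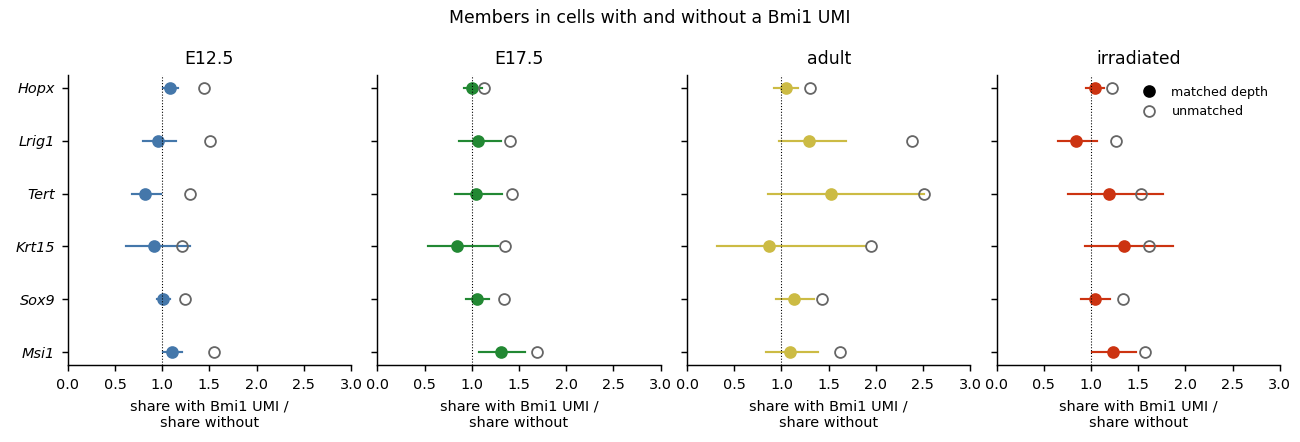
Ratio of the number of cells with a UMI of each gene among cells with a Bmi1 UMI to the number expected, by library. Filled points are matched on depth, with 95% intervals for the counting of observed cells, and open points are unmatched. Matched ratios of Hopx lay between 1.01 and 1.08, and that of Msi1 at E17.5 at 1.31.

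The eGFP feature gave a second marker of the Bmi1 locus. At E12.5, 1343 cells had an eGFP UMI, and Krt15 was found in 36 of them against 51.8 expected, a ratio of 0.695 (0.487 to 0.962), called lower beside 7.79% of genes, with none called higher, beside 3.70%. With class matched Krt15 stood at 0.669 (0.468 to 0.926), again the only call, beside 8.43% of genes lower and 3.38% higher. That class match could not set the Hoxb13 cluster, which held most E12.5 Krt15 UMIs, apart from the other named clusters. Hopx stood at 1.09 (1.02 to 1.16), Lrig1 at 1.13, Tert at 0.994, Sox9 at 1.02 and Msi1 at 0.920. After irradiation, Krt15 was called higher in the 414 eGFP cells, at 1.28 (0.884 to 1.78), beside 6.72% of genes, and none lower, beside 4.47%. With class matched Krt15 stood at 1.30 (0.887 to 1.83), beside 4.85% of genes higher, and Tert was called lower, at 0.715 (0.416 to 1.14), beside 6.84%. Outside the enteroendocrine-like, tuft-like and unnamed clusters, 26 of 69 eGFP cells had Krt15 against 13.8 expected, a ratio of 1.89 (1.23 to 2.77), in bins of as few as 14 cells without eGFP. An eGFP UMI was found in only 72 cells at E17.5 and 49 in the adult. Neither matching gave a call at E17.5, where 7.06% of genes were higher and 6.41% lower at matched depth, and 6.15% and 6.88% with class. Adult Msi1 was called higher, at 1.51 (0.865 to 2.46) and 1.39 (0.792 to 2.25) with class, and Sox9, at 1.37 (0.894 to 2.00), only before class was matched. Among all genes 11.1% were higher and 9.45% lower there, and 7.96% and 10.1% with class. Bmi1 and eGFP themselves met at a ratio of 1.02 at E12.5, 1.86 (1.14 to 2.88) at E17.5, 1.34 among adult cells and 1.00 after irradiation.

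The 15 pairs among the 6 genes were examined alike, along with each gene and Lgr5, the receptor that marks crypt base columnar cells. Lgr5 and Msi1 met most. At E17.5, 188 of 426 cells with Lgr5 had Msi1 against 55.0 expected, a ratio of 3.42 (2.95 to 3.94), and 1.98 (1.71 to 2.29) with class matched. In the adult the ratio was 2.61 (2.02 to 3.30) and 2.81 (2.16 to 3.60) with class, after irradiation 1.41 (1.06 to 1.85) and 0.919 with class, and at E12.5 1.03. Lgr5 and Lrig1 met at 1.69 (1.41 to 2.00) at E17.5 and 1.33 (1.11 to 1.58) with class, and at 1.62 (1.24 to 2.08) and 1.24 (0.924 to 1.62) in the adult. Lgr5 and Sox9 met at 1.55 at E17.5, 1.65 in adult cells and 1.60 after irradiation, and at 1.19, 1.13 and 1.05 with class matched.

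Among the 6 genes, Lrig1 and Msi1 met at 1.49 (1.22 to 1.79) at E17.5 and 1.24 (1.02 to 1.5) with class matched, and at 1.63 and 1.14 in the adult. Msi1 and Sox9 met at 1.36 at E17.5 and 1.40 after irradiation, and at 1.08 and 1.14 with class. Tert and Sox9 met at 0.825 (0.705 to 0.959) at E17.5, and at 0.928 with class. At E12.5, Hopx was found in 41 of 108 cells with Krt15 against 72.8 expected, a ratio of 0.564 (0.404 to 0.765). Of these, 46 cells lay in the Hoxb13 cluster, where Hopx was found in 4 of them and in 2 of the 42 cells without Krt15. The part of this cluster in the E12.5 ratio was not tested. In that library Lrig1 and Hopx met at 1.17 (1.04 to 1.31), and Lgr5 and Hopx at 1.17 (1.06 to 1.29). Some bins of the adult Lrig1 pairs held 5 cells without Lrig1, and class-matched bins as few as 1.

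Reserve stem cells are described as slowly dividing, so each gene was measured in cells with at least 3 UMIs over 15 G2/M genes after thinning, here called cycling. This is a range of a score and not a cell type: 2130, 1035, 107 and 35 cells were cycling in the E12.5, E17.5, adult and irradiated libraries, and 542, 296, 105 and 16 cells had 2 or 3 such UMIs, next to the threshold. Lrig1 was higher in cycling cells in 3 libraries. It had 10.1 CPM in cycling and 6.52 in other cells at E17.5, 29.1 (24.5 to 34.3) and 11.8 (10.4 to 13.2) in the adult, and 30.8 (22.6 to 41.0) and 11 after irradiation, but 4.91 and 4.71 at E12.5. Outside enteroendocrine-like, tuft-like and unnamed clusters, adult Lrig1 had 29.1 CPM in cycling and 15 in other cells. When the G2/M genes were counted without thinning, the irradiated Lrig1 ratio was 0.78 on the log2 scale in place of 1.41.

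Hopx depended on which cells it was compared with. In all adult epithelial cells it had 226 CPM in cycling and 493 in other cells. Without enteroendocrine-like, tuft-like and unnamed clusters it had 226 in cycling and 126 in other cells, and after irradiation 167 and 104. At E17.5 it had 202 and 217 CPM in all epithelial cells, and 202 and 122 without those clusters. Bmi1 had 8.29 CPM in cycling and 12.7 in the remaining epithelial cells at E17.5, 6.44 and 12.3 among adult cells, and 4.59, from 7 UMIs, and 14.6 after irradiation. Tert had 5.35 CPM in cycling and 8.91 in other E17.5 cells outside those clusters. Irradiated Krt15 had 121 CPM in cycling and 20.4 in other cells, all but 127 of its 952 UMIs being in 1 cluster.

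The 14 crypt base columnar genes had 5 members higher and 3 lower from E12.5 to E17.5, and 5 higher and none lower from E17.5 to the adult. Over all genes 13.2% were higher and 14.5% lower in the first comparison, and 12.6% each way in the second. Olfm4 went from 0.415 to 84.0 and then 579 CPM, Smoc2 from 1.11 to 15.4 and then 37.7 CPM. After irradiation none was higher (2.59% of all genes) and 5 were lower (4.78%), among them Olfm4 at 8.85 CPM, the proliferation-linked Cdca7 at 6.76 against 32.6, the stem cell regulator Ascl2 at 4.72 against 13.0 and Smoc2 at 15.4 against 37.7. The median log2 ratios of this list were 0.58, 0.45 and -0.59, beside -0.15, -0.06 and -0.04 over all genes tested.

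Of the other reserve or injury-responsive stem genes, 5 were higher and 2 lower of 12 tested after irradiation (median 0.49), where 2.59% and 4.78% of all genes were. Ly6a was at 107 against 3.59 CPM, Clu, a secreted chaperone that marks revival stem cells, at 46.7 against 2.25, Anxa1 at 10.1 against 0.0335 and Areg, an ErbB ligand, at 98.2 against 20.4. The irradiated cluster of 96 cells with most Krt15 held much of this RNA: 2982 of 4163 Ly6a UMIs, 1358 of 1809 of Clu, 338 of 392 of Anxa1 and 2756 of 3805 of Areg. Without it, 3 genes were higher and 1 lower, a count made after the data had been seen and with no share of all genes beside it. Ly6a (35.1 CPM), Clu (13.4) and Anxa1 (1.60) kept their calls, and Areg, at 31.2 CPM, did not. From E12.5 to E17.5, 6 of 11 were higher and 1 lower (13.2% and 14.5% of all genes), led by Fgfbp1 (230 against 5.20 CPM), Areg (32.5 against 0.574) and, downwards, Mex3a (6.71 against 91.6). From E17.5 to the adult, 3 were higher and 3 lower of 11 (12.6% of all genes each way), with the tuft cell kinase Dclk1 at 256 against 0.628 CPM and Clu at 2.25 against 65.6.

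Genes linked to each of the 6 were counted in the same way, and their counts stand beside 13.2% of all genes higher and 14.5% lower from E12.5 to E17.5, 12.6% each way from E17.5 to the adult, and 2.59% and 4.78% after irradiation. None of the 10 telomerase and telomere partners was higher in any of the 3 comparisons. From E12.5 to E17.5 1 was lower (the telomere protein Terf2, 13.8 against 29.8 CPM), from E17.5 to the adult 5 were, led by the small telomerase RNP proteins Nop10 (130 against 427), Dkc1 (35.3 against 89.5), Nhp2 (96.4 against 232) and Gar1 (33.2 against 75.8), and after irradiation none. The medians were -0.34, -0.94 and -0.34. Without enteroendocrine-like, tuft-like and unnamed cells only Nop10 was called from E17.5 to the adult (198 against 481 CPM), beside 5.70% of genes higher and 13.2% lower. In crypt base columnar-like cells none of the 10 was called, beside 7.59% of genes higher and 6.60% lower. In enterocyte-like cells 5 of the 10 were lower and none was higher, with a median of -0.93, beside 16.3% and 10.6% of genes. Among enteroendocrine-like cells 2 of the 10 were lower and none was higher, beside 9.34% and 11.3% of genes. Beside Lrig1, 9 genes were tested: ErbB receptors, inhibitors, and the receptors Met and Ret, which are not of the ErbB family. Ret (14.9 against 0.464 CPM) and Egfr (12.1 against 1.76) were higher at E17.5 than at E12.5. Without enteroendocrine-like, tuft-like and unnamed cells Ret stood at 3.39 against 0.470 CPM and Egfr at 9.02 against 1.74. Both were still called there, as was Erbb2 (27.3 against 12.3), beside 10.8% of genes higher. The ErbB inhibitor Errfi1 (259 against 61.6) was the only one past the fold from E17.5 to the adult, but stood at 57.5 against 50.6 CPM without enteroendocrine-like, tuft-like and unnamed cells, and none of 8 was after irradiation, with Egfr at 30.3 against 16.2 CPM.

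Beside Krt15, 4 of 9 keratins tested were higher and 2 lower from E12.5 to E17.5 (13.2% and 14.5% of all genes), led by Krt23 (5.73 against 0.550 CPM), Krt19 (868 against 259) and, downwards, Krt5 and Krt14. From E17.5 to the adult 5 of 7 were higher and 1 lower (12.6% each way), led by Krt23 (60.7 against 5.73) and Krt18 (4847 against 612). Without enteroendocrine-like, tuft-like and unnamed cells 1 of 7 was higher and 1 lower (5.70% and 13.2% of all genes), with Krt23 at 7.16 against 6.96 CPM and Krt18 at 668 against 545. After irradiation 1 of 7 was higher (2.59% of all genes), Krt7, at 1073 against 494 CPM. Without enteroendocrine-like, tuft-like and unnamed clusters 5 of 7 were higher (6.13% of all genes). The irradiated cluster with most Krt15 was among these cells, and its part in this count was not tested. Of the Sox factors beside Sox9, 5 of 10 were lower at E17.5 than at E12.5 and none was higher, led by Sox11 (21.4 against 476 CPM), Sox5 (2.09 against 14.5), Sox4 (115 against 423) and Sox12 (9.06 against 35.3). Sox4 was then higher in the adult, at 274 CPM, but at 128 against 102 CPM without enteroendocrine-like, tuft-like and unnamed cells, and after irradiation only Sox5 passed the fold, at 4.80 against 1.48. Within enteroendocrine-like cells none of 4 Sox factors tested was called higher after irradiation (1.52% of genes). The same held for the 4 tested without enteroendocrine-like, tuft-like and unnamed cells (6.13%). Of the 6 Musashi partners, Lin28b (1.08 against 11.2 CPM) and Lin28a were lower at E17.5 than at E12.5, and no gene was called in the other whole-library comparisons. Msi2 had 95, 54.9, 99.4 and 82.5 CPM in the 4 libraries, and was not called between whole libraries. Without enteroendocrine-like, tuft-like and unnamed cells 4 of the 6 were lower at E17.5 than at E12.5 (17.4% of all genes), Msi2 among them (43.7 against 93.5 CPM). In the same cells Lin28b was lower in the adult than at E17.5 (13.2% of all genes). Of the 6 genes set beside Hopx, Hdac2 (59.2 against 133 CPM), a histone deacetylase, and the gut factor Gata5 (10.9 against 23.2) were lower at E17.5 than at E12.5. The antisense Hopxos was higher in the adult than at E17.5, at 2.55 against 0.467 CPM, but not without those cells (0.804 against 0.314), and none was called after irradiation.

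The genes whose levels ran most like each of the 6 were taken over 24 sums of at least 50 cells, 1 per library and class, as Pearson's r of log2(CPM + 10). These sums share libraries and depth, and r is a description. For Hopx they were Lgals3bp (0.889), Gimap1 (0.888) and Gimap5 (0.880), and for Lrig1 Rgmb (0.811), Insc (0.790) and Mmd (0.684). Tert ran with Aifm3 (0.855), Dcaf17 (0.847) and Casp2 (0.845), and Krt15 with Il1rn (0.949), Anxa8 (0.944) and Slc4a11 (0.933). For Krt15, the sum from the irradiated cluster of 96 cells held 86.7% of that library's UMIs of the gene. The part of this sum in the r values of Krt15 was not tested. Sox9 ran with Cdc42ep1 (0.835), Zbtb18 (0.816) and Macc1 (0.793), and Msi1 with Trim24 (0.869), Zfyve27 (0.856) and Camkk2 (0.841). Among the 6 themselves the highest were Sox9 with Msi1 (0.478) and Hopx with Msi1 (0.452). With Bmi1, r was 0.548 for Msi1, 0.331 for Tert, 0.303 for Hopx, 0.222 for Sox9, -0.06 for Lrig1 and -0.12 for Krt15.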

How the data were processed

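Per the labels' protocols, 10x Chromium 3' reagents (version 3) were used. The authors deposited raw UMI counts per gene and barcode for each library, made with Cell Ranger 3.1.0 against mm10 per the submitters' processing notes. The deposited counts carry no normalization, and every barcode has at least 500 UMIs. Gene positions came from GENCODE M21 (GRCm38), which 31011 of 31054 feature IDs matched. Library totals were 90674425, 77677622, 38648331 and 50761353 UMIs over 5216, 5232, 6287 and 5996 barcodes (E12.5, E17.5, adult, irradiated), with median mitochondrial shares of 4.68%, 3.69%, 13.6% and 13.6%. The filters passed 4226, 4602, 3788 and 3184 barcodes.

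Scrublet in scanpy 1.11.5 gave doublet scores, and 0.8% of cells per 1000 barcodes, those scoring highest, were removed. Each library was clustered alone (2000 variable genes, 30 principal components, 20 neighbours, Leiden resolution 1; leidenalg 0.10.2, igraph 0.11.9). Each cluster was given the class of its best marker score if this was at least 0.5 and at least 3 markers passed 50 CPM in 10% of cells. Clusters with a median under their library's divided by 3, with markers of 2 classes or with leading genes of another class were left unnamed or general. These naming rules were set after the clusters had been seen. Differences from the study's own classes may come from these rebuilt names.

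Ratios between libraries used a pseudocount of 1 CPM and genes that reached 10 UMIs in the one or the other library. Matching used 10 depth bins, or 5 within a class. Pairs took cells with the rarer gene. With 1 library per group no test was possible and no p-value is given. Named genes were the 6, Bmi1, eGFP, the 3 most alike genes of each, and up to 4 genes of each of 8 lists past 2-fold in a comparison, largest first. The members, lists and rules were chosen with earlier results of these data known. Of 7 symbols in the Musashi list 6 are in the files. The ratios between libraries and the depth-matched ratios were tested on simulated counts without cell classes. The other steps, such as clustering, naming, thinning and class matching, were not tested in this way. Alternatives covered the cell filter, doublets, resolution, scaling (TMM of edgeR 4.0.16 in R 4.3.3), pseudocount, count minimum, fold, thinning and bins. Scikit-learn 1.9.0, matplotlib 3.10.9, pandas 2.3.3, scipy 1.17.1 and numpy 2.4.6 ran on Python 3.11.15.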

Additional observations from a re-analysis of the deposited data

How the results depend on the processing

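No direction that had been called past a threshold turned round under any alternative run. The number of the 6 genes called moved as follows. No share of all genes called is given for the alternatives in this section, so their counts cannot be set beside one. From E12.5 to E17.5, TMM scaling and a pseudocount of 10 CPM each gave 1 lower in place of 2, and a fold of 1.5 gave 2 higher in place of 1. From E17.5 to the adult, 1 was higher and 0 lower. Every deposited barcode, doublets kept, the mean of each cell's CPM, all kept cells and a pseudocount of 0.1 CPM each gave 2 higher, and a fold of 1.5 gave 4. Leaving mitochondrial and ribosomal protein genes out of the totals gave 0 higher and 1 lower, and moved the median of all genes from -0.06 to -0.16 on the log2 scale. A pseudocount of 0.1 CPM and a fold of 1.5 each gave 1 lower. Among enteroendocrine-like cells, taking cells by marker UMIs gave 0 higher in place of 1 (adult over E17.5) and 2 in place of 1 (irradiated over adult). Resolution 2 gave 2 higher in place of 0 among enterocyte-like cells. In cells with Bmi1, 20 bins gave 1 lower at E12.5 in place of 0. Matching class at E17.5 gave 0 higher and 1 lower in place of 1 and 0. In the adult, thinning gave 0 higher in place of 1 and every barcode gave 2. After irradiation, thinning gave 0 higher in place of 1, the stricter filter and doublets kept each gave 2, and every barcode gave 1 lower in place of 0. In cells with eGFP, thinning gave 0 higher in the adult in place of 2 and 0 after irradiation in place of 1. Matching class gave 1 higher in the adult in place of 2, and 1 lower after irradiation in place of 0, and 20 bins gave 0 higher after irradiation. Irradiated Krt15 was 14.8 CPM as the mean of each cell's CPM, against 24.6. Leaving out the cluster with most Krt15, chosen after seeing the data, is given beside the Krt15 values. Left out of the irradiated library only, it also gave 2 of the 10 telomerase partners lower in place of 0 (Dkc1, 16.0 against 35.3 CPM, and Nhp2, 34.7 against 96.4). The causes of these moves were not tested. At the depth of the adult library, Tert, Krt15 and Lrig1 were found in too few cells for small differences to be seen. No paired analysis was possible because each group had 1 library.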
